A study of Mus musculus with 30 samples.

Results

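These are the footprint sites assigned to ATF3 that lie outside promoters in mouse retinal ganglion cells (RGCs), the output neurons of the eye, with axons in the optic nerve. A footprint is a short stretch that transposase cuts less than its accessible surroundings, and the authors deposited a score per site and day for it. The columns of the scores, and of the authors' differential peaks, carry the word nonTarget before the day, and what it stands for was not given, so they are taken here as the values of that day. A site was included if it overlapped a peak of the common accessibility set whose deposited annotation was not a promoter class. Of 20364 ATF3 sites, 11348 met this rule, and they lay in 9468 of 151630 peaks. A further 8867 sites lay in promoter peaks and 149 in no peak of the set.

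The study profiled RGCs before and after optic nerve crush, an injury that severs RGC axons behind the eye, in mouse retinas dissociated with papain and sorted by flow cytometry. Chromatin accessibility (ATAC-seq) was measured in 6 libraries of uninjured mice (day 0), 3 libraries at day 1 and 6 at day 3 after crush. RNA-seq had 3 labelled libraries at each of days 0 to 4. Counts were given for all 3 at days 0, 1 and 3 and for 2 each at days 2 and 4. The strain label was C57BL/6 for all but 2 RNA libraries of day 0, labelled C57BL/7 and C57BL/8, and no group carried a labelled transgene or deletion.

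ATF3 is a basic leucine zipper (bZIP) transcription factor, induced in many neurons when their axon is cut and studied for its part in regeneration and in neuron death. bZIP proteins bind DNA as pairs: partners of the JUN and FOS families favor the AP-1 element, and partners of the CREB and ATF families favor the cyclic AMP response element (CRE). Sites away from promoters often belong to enhancers, which can act on genes over long distances. Other factors bind the same letters, so a site assigned to ATF3 by its motif is not a measurement of ATF3 protein.

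The sites came in 3 main widths, which differed in sequence among the few sites that could be read. Sites of 9 bases made up 68.7% (7794), sites of 12 bases 18.8% (2137) and sites of 11 bases 12% (1357), and 60 sites were longer. In promoter peaks the shares were 56.9%, 20.0% and 22.4%. Sequence could be read for 45 of the sites outside promoters, those that fall within 300 bases around a gene start in RefSeq (GRCm38.p6, 250 bases before to 50 after); these starts were not called promoters in the deposited annotation. Examples of each width follow, 5′ to 3′ on the plus strand with 10 flanking bases, to show the 3 kinds of element behind one factor name. Each is named by the deposited nearest gene of its peak, which is not the gene of the RefSeq start. The deposited distance to the start of the named gene was, for example, −27920 bases for Calcoco1, 10644 for Arl6ip5 and −10226 for Nfia. Capitals mark the deposited site.
Calcoco1, 9 bases: cacagggtgtGTGACTCAAcattcttttg
Gm10095, 9 bases: cactcagggaGTGACTCACtcagtcactg
9330162B11Rik, 9 bases: tgcagcccagATGAGTCATgagaaggatt
Arl6ip5, 9 bases: ccccatccatGTGAGTCAGgctcctctgg
Tmem243, 9 bases: cagtgagcatATTACTCAGcaggcgctgg
Gm19077, 12 bases: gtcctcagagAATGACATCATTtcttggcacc
Gm32158, 12 bases: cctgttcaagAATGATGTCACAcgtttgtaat
Gm30928, 12 bases: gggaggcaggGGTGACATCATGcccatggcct
Nfia, 11 bases: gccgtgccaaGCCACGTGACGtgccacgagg
Epcam, 11 bases: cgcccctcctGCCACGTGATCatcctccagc

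Of the 24 sites of 9 bases with sequence, 16 held the AP-1 element TGACTCA or its reverse complement TGAGTCA, and the other 8 differed from it at 1 base, as the Tmem243 site does. Among the 12 sites of 12 bases, 8 held the CRE variant TGACATCA or TGATGTCA and 0 held the CRE itself, TGACGTCA. The E-box CACGTG, best known as an element of basic helix-loop-helix proteins and also bound by some bZIP proteins, stood in 8 of the 9 sites of 11 bases. None of these elements contains another, and both strands were searched. In promoter peaks 71.8% of 245 sites of 9 bases held the AP-1 element, 55.7% of 472 sites of 11 bases the E-box, and 51.8% of 332 sites of 12 bases the CRE. For comparison, the middle 9 bases of all 32851 RefSeq windows held the AP-1 element in 0.0822%, the middle 11 the E-box in 0.149%, and the middle 12 the CRE variant in 0.0365% and the CRE in 0.0244%. Over the whole 300 bases, 5.20% of the windows held the AP-1 element, 7.15% the E-box, 3.62% the CRE variant and 1.79% the CRE. The sites were assigned to ATF3 by motif, so their higher shares than in the windows are not independent of that assignment. A match describes letters and does not show which protein was bound.

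The printed sites also differed in how their peaks behaved. The Calcoco1 site (chr15:102751027-102751035) lay in a peak at 2.92 to 3.89 CPM (counts scaled to the size of the library) on day 0 and 4.71 to 7.07 on day 3, with no overlap, and rose by a log2 change of 0.78 ± 0.12 (standard error; adjusted p = 7.3e-05; Calcoco1 encodes an autophagy receptor). At Gm10095 (chr12:86833948-86833956), where 5 sites share a peak, the score was 0.760, 1.04 and 1.60 on days 0, 1 and 3. The Gm19077 site with a CRE variant (chr15:66354008-66354019) lay in a peak that rose by 1.59 ± 0.24 (adjusted p = 4.8e-05). The E-box site nearest to Nfia, a nuclear factor I gene (chr4:97869046-97869056), lay in an intronic peak that rose by 0.94 ± 0.19 (adjusted p = 0.00077). Sites with the same element lay in peaks with different outcomes. The AP-1 site at Arl6ip5 (chr6:97221918-97221926) lay in a peak with a change of 0.01 ± 0.18 (adjusted p = 0.99), the E-box at Epcam (chr17:87613516-87613526) in one with 0.08 ± 0.10 (adjusted p = 0.62), and the CRE variant at Gm30928 (chr7:126356011-126356022) in a peak that fell by 0.41 on the log2 scale (adjusted p = 0.019).

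By peak annotation, 5510 sites (48.6%) were in introns, 3986 (35.1%) in distal intergenic peaks, 907 (7.99%) in exons, 600 (5.29%) in 3′ UTRs, 244 (2.15%) downstream of genes and 101 (0.890%) in 5′ UTRs. The peaks were spread like all peaks outside promoters: 49.1% were intronic against 51.7%, and 35.1% distal intergenic against 34.3%. They were wider, at a median of 1104 bases against 634 for other peaks outside promoters, and had a similar GC content, 48.2% against 47.5%. A peak usually held 1 site (7979 peaks), 1489 peaks held 2 or more, and the highest number was 13. The median distance to the nearest gene start was 12536 bases. Few sites were shared with the other 3 deposited factors: 257 sites (2.26%) overlapped an ATF4 site, 495 (4.36%) a CEBPG site and 688 (6.06%) a DDIT3 site, which is 4.19%, 5.32% and 10.8% of those factors' own sites. These overlaps were mostly of the sites of 12 bases, of which 29.1% overlapped a DDIT3 site and 19.2% a CEBPG site, against 0.192% and 0.295% of the sites of 9 bases. ATF4, CEBPG and DDIT3 are bZIP factors of the integrated stress response.

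The footprint scores were higher after crush at every listed site, which is a property of the deposited tables. In all 42180 entries of the 4 tables the scores of days 1 and 3 exceeded that of day 0, with 0 exceptions, and the highest of the 3 scores was never below 0.145. The direction against day 0 is therefore no finding, and with 1 score per site and day the scores have no replicate error. Among the sites outside promoters the median score was 0.0956 on day 0, 0.165 on day 1 and 0.183 on day 3, against 0.136, 0.201 and 0.218 at promoter sites. At or above 0.145 were 22.0% of the sites on day 0, 67.0% on day 1 and 79.6% on day 3. By that measure 3743 sites (33.0%) passed only on day 3, 2798 (24.7%) on days 1 and 3, 2496 (22.0%) on all 3 days and 2311 (20.4%) only on day 1. Between days 1 and 3 the direction was free: 7069 sites (62.3%) were higher on day 3 and 4279 lower, against 59.3% higher over all sites of the 4 tables and 57.4% at promoter sites. The share was 65.0% in distal intergenic peaks, 61.8% in introns and 55.7% in exons. By width it was 63.1% for 9 bases, 62.9% for 12 bases and 56.5% for 11 bases.

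**Figure D1:**
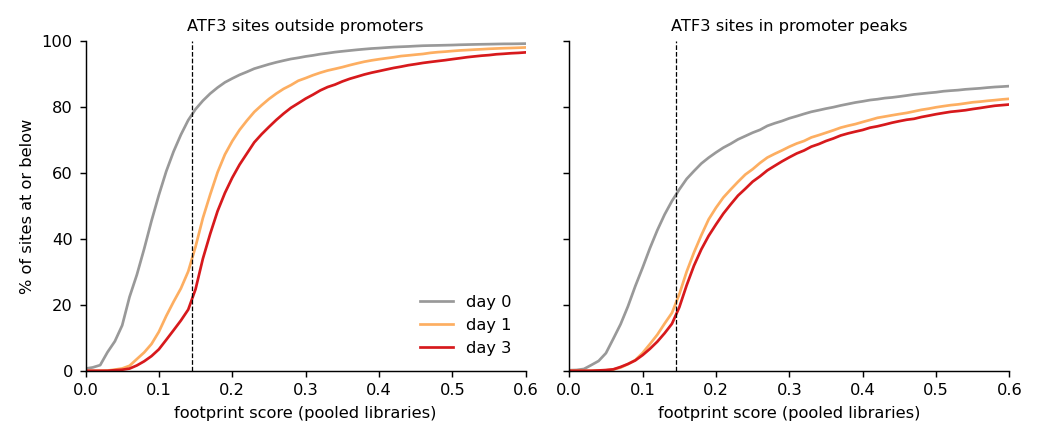
Cumulative percent of ATF3 sites (y axis) against footprint score (x axis) on days 0, 1 and 3, outside promoters on the left and in promoter peaks on the right. The day 0 curve lies left of the others because every listed site scored higher after crush, and the dashed line marks 0.145, the lowest value that a site's highest score took.

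The strongest footprints were not at the peaks that opened most. The highest score was at a 9-base site in the 3′ UTR of Lars2, which encodes mitochondrial leucyl-tRNA synthetase (chr9:123462111-123462119): 4.86 on day 0, 8.05 on day 1 and 6.76 on day 3. Its peak changed by a log2 of 0.26 ± 0.14 (adjusted p = 0.22). Next came a site near Nr4a1, an activity-induced nuclear receptor gene (chr15:101246475-101246485), with 3.00, 4.85 and 3.73 and a peak at −0.19 ± 0.10 (adjusted p = 0.20). The other 6 of the 8 highest on day 3, at A430078I02Rik (2 sites), Prrc2b, Gm14486, Tex44 and Phf2, also lay in peaks that did not pass the test. Among the largest rises in score, a 9-base site in the 5′ UTR of Rfx2, a regulator of cilium genes (chr17:56814490-56814498), went from 0.389 to 0.782 and 1.41, with a peak rise of 0.70 ± 0.14 (adjusted p = 0.00079). Across the 9468 peaks the mean change in footprint score and the log2 change in peak counts on day 3 had a Pearson correlation of 0.419 and a Spearman correlation of 0.506. Both values of a peak come from ATAC-seq of the same days, and which libraries entered the scores was not given. On day 1 the correlations were 0.0359 and 0.0889.

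Peak counts varied in depth and quality between libraries. ATAC libraries held 20006724 to 72579102 counts in peaks and RNA libraries 19024286 to 27561352 in genes. The deposited fraction of reads in peaks was 0.322 to 0.496 on day 0, 0.157 to 0.186 on day 1 and 0.173 to 0.456 on day 3, with replicates 2, 3 and 4 of day 3 below 0.2. The deposited sample sheet placed the ATAC libraries in 2 batches: replicates 1 to 3 of every day were batch 2, and replicates 4 to 6 of days 0 and 3 were batch 1, so day 1 was measured in batch 2 alone.

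The peaks with ATF3 sites outside promoters took a larger part of each library's peak counts after crush. On day 0 this part was 5.06%, 5.11%, 5.37%, 5.05%, 5.11% and 5.28% in replicates 1 to 6. On day 1 it was 6.00%, 5.99% and 6.45%, and on day 3 6.31%, 6.90%, 7.21%, 6.49%, 6.13% and 6.35%. Every library after crush lay above every library of day 0. Other peaks outside promoters took 24.8% to 27.2% on day 0, 30.1% to 30.9% on day 1 and 25.9% to 30.8% on day 3, highest in the libraries with fractions of reads in peaks under 0.2. In the 3 day 3 libraries with fractions of 0.31 or more, the part in ATF3 peaks was 6.13% to 6.35% and the part in other outside peaks 25.9% to 26.6%. Footprint scores come from ATAC-seq too, and the listed sites all scored higher after crush, so these values cannot be taken as independent of how the sites were listed. In bulk libraries a change in the number of cells of a type and a change within cells, such as less RNA per cell, cannot be told apart.

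**Figure D2:**
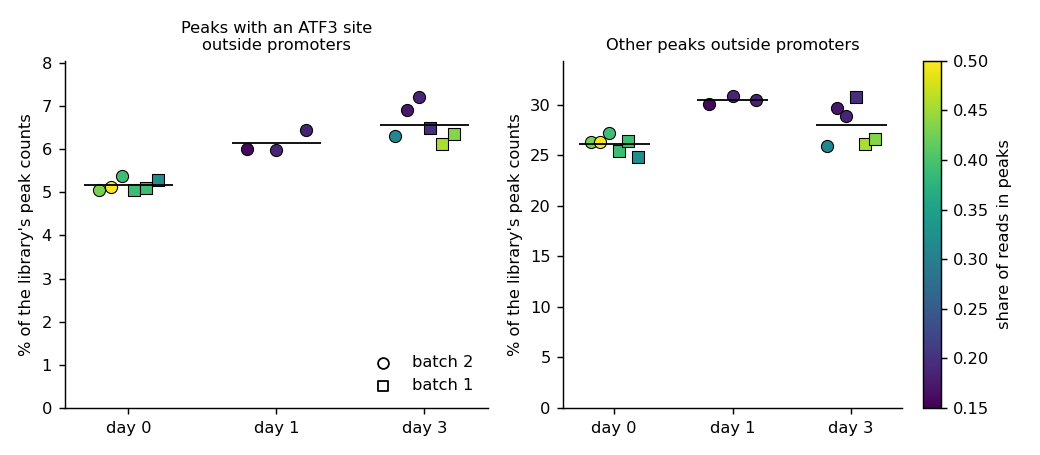
Percent of each library's peak counts (y axis) in peaks with ATF3 sites outside promoters (left) and in all other peaks outside promoters (right), by day after crush; each point is a library, circles are batch 2 and squares batch 1, color is the fraction of reads in peaks and the line is the mean. On the left every library of days 1 and 3 lies above the day 0 range of 5.05% to 5.37%.

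By the tests of all 151630 peaks together, 23.8% were called in either direction on day 3. On that day 4294 of the 9468 peaks (45.4%) were higher than on day 0 by edgeR's quasi-likelihood F test with Benjamini-Hochberg adjustment, where 16.4% of all peaks were, and 239 (2.52%) were lower, where 7.39% of all peaks were. The median log2 change was 0.35, against 0.03 over all peaks. Every listed site scored higher after crush in ATAC-seq of the same days, so this excess is not independent of how the sites were listed. The same holds for the shares by subgroup, for day 1 and for the authors' counts below. Other peaks outside promoters had 16.2% higher and 7.23% lower with a median of 0.04, and peaks with ATF3 sites in promoters had 16.7% and 6.40% with a median of −0.03. Of the peaks with ATF3 sites outside promoters, 2136 (22.6%) rose at least 2-fold, where 6.1% of all peaks did, and 2 (0.0211%) fell as far, where 0.164% did. Of the 4287 higher peaks with a mean count of at least 20, 2626 had no overlap between the days within either batch, which is 27.7% of the 9468 peaks, where 7.51% of all peaks met the same rule. With the fraction of reads in peaks in place of batch in the model, 1703 peaks were higher and 10 lower, and with batch 1 alone 2058 and 20, while the median difference from all peaks was 0.33 and 0.28 in these fits against 0.32. Over all peaks the same 2 fits called 5552 and 512, and 6540 and 622.

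The share that rose differed with the kind, number and position of the sites. It was 46.8% of peaks with 9-base sites alone, 43.8% with 12-base sites, 31.0% with 11-base sites and 56.7% with several widths. Peaks with 1 site rose in 42.7%, with 2 sites in 57.8% and with 3 or more in 68.3%. Among peaks with 9-base sites alone these shares were 44.6%, 63.4% and 75%, with median log2 changes of 0.33, 0.69 and 0.93. Only sites with a higher score after crush were listed, so the number of listed sites is not independent of a rise of the peak. The part of the listing in these shares was not tested. Distal intergenic peaks rose in 50.0% (other peaks of that class 19.5%), intronic peaks in 47.2% (15.7%), 5′ UTR peaks in 34.2% (8.80%), exonic peaks in 28.1% (10.8%) and 3′ UTR peaks in 26.5% (8.47%). The share grew with distance from the nearest gene start, from 36.3% under 5 kb to 61.7% beyond 50 kb, and it did so in other outside peaks too (11.6% to 24.0%). Peaks whose site overlapped a site of another factor rose in 50.9% against 44.9% without. Peak strength moved with these shares: with all peaks outside promoters divided into 4 equal groups by mean CPM, from the weakest to the strongest, the groups held 756, 1317, 2262 and 5133 ATF3 peaks, of which 53.2%, 51.9%, 50.7% and 40.2% rose, against 15.3%, 16.7%, 17.4% and 15.6% of the other outside peaks.

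**Figure D3:**
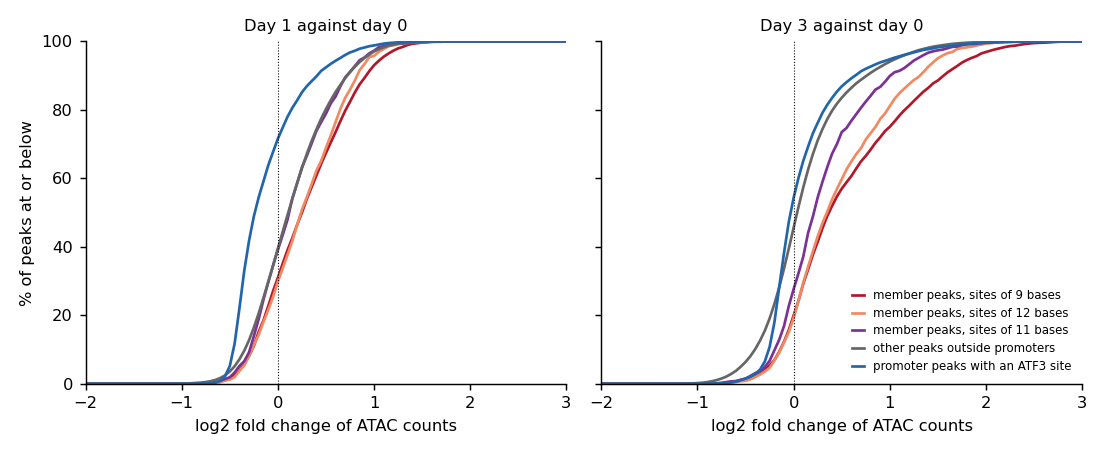
Cumulative percent of peaks (y axis) by log2 change in counts against day 0 (x axis), for day 1 (left) and day 3 (right); lines are peaks with 9-, 12- or 11-base ATF3 sites outside promoters (the member peaks of the key), other peaks outside promoters, and promoter peaks with ATF3 sites. On day 3 the 9- and 12-base lines lie farthest right, and the line of promoter peaks, with a median of −0.03, lies close to 0.

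The largest rises on day 3 were at weak day 0 peaks beside predicted or noncoding genes. A distal peak near Gm47362 with a 9-base site (chr10:85739440-85740079) had 0.289, 0.504 and 0.794 CPM (lowest, median and highest) on day 0 and 3.19, 3.70 and 5.50 on day 3. The 3 libraries of day 1 had 1.23, 0.609 and 1.81 CPM. All 6 libraries of day 3 were above all 6 of day 0, and the change was 3.00 ± 0.24 on the log2 scale or 8.02-fold (adjusted p = 8.94e-08). The distal peak near Gm23959 with 3 sites (chr11:17468293-17469276) went from 0.542, 0.58 and 1.20 CPM to 4.18, 5.64 and 6.72, a change of 2.88 ± 0.21. Other peaks in the leading 8 were near Gm22448, Gm7729, Gm4894, Gm47316, Gm41335 and Gm8883, with log2 changes between 2.76 and 2.93.

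Falling peaks were fewer, and the 8 largest falls changed less than the 8 largest rises. Those with CPM given below were stronger on day 0 than the rising peaks above. Strength was not compared over all rising and falling peaks. An intronic peak near Nmur2, a neuromedin U receptor gene (chr11:55973414-55975306), had 10.0, 13.2 and 15.0 CPM on day 0 and 3.09, 6.24 and 8.88 on day 3, with no overlap (log2 −1.11 ± 0.19, adjusted p = 0.00014). The exonic peak of Igf1r, the receptor for insulin-like growth factor 1 (chr7:68216629-68220485), had 14.8, 17.8 and 21.2 CPM on day 0 and 7.59, 10.3 and 13.0 on day 3 (−0.84 ± 0.11, adjusted p = 1.53e-05). An exonic peak of Hspa12a, an HSP70-family gene (chr19:58825493-58830403), went from 16.1, 19.8 and 24.2 to 7.93, 12.3 and 14.6 CPM (−0.77 ± 0.11, adjusted p = 2e-05). The other 5 in this group were near Akap11, Lzts1, Gm48602, Cux2 and Gm12409, at −0.93 to −0.74. Footprint scores at these falling peaks were higher after crush, as at all listed sites: at Nmur2 the score was 0.069, 0.185 and 0.073 on days 0, 1 and 3, and at Igf1r 0.088, 0.102 and 0.170. The Igf1r and Hspa12a peaks kept their call in every alternative run, and the other 6 lost it in at least 1.

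On day 1, 1149 peaks (12.1%) were higher than on day 0, where 5.44% of all peaks were, and 75 (0.792%) were lower, where 2.4% of all peaks were (7.84% in either direction). The median log2 change was 0.23 against 0.06 over all peaks. These counts depended on the design: with the replicate number as a block 825 were higher and 28 lower, within batch 2 alone 2852 and 617, with DESeq2 1342 and 262, and with day only 0 and 0 (1213 and 231 at an unadjusted edgeR p of at most 0.05). The counts over all peaks moved too. They were 8249 higher and 3635 lower in the main fit, 4995 and 1217 with the block, 22069 and 18748 within batch 2, and 9488 and 10962 with DESeq2. With the fraction of reads in peaks as the other term the counts of ATF3 peaks were also 0 and 0 (366 and 11 unadjusted), the median log2 change was 0.06, and its difference from all peaks was 0.10 against 0.16. That fraction was 0.157 to 0.186 on day 1 and 0.322 to 0.496 on day 0. Without overlap, these days alone cannot tell library quality and day apart. Leaving out 1 library gave between 51 peaks (without day 1 replicate 3) and 1727 (without day 3 replicate 3) higher; the count also fell below 600 without day 1 replicate 1 (509) or 2 (125) or when day 0 replicate 1 (148), 2 (557) or 3 (477) was left out. Scaling by library size alone shifted the median of all peaks to 0.28 and called 3023 higher and 19 lower, with the same difference of 0.16 between the ATF3 peaks and all peaks. The largest rise was at an intronic peak of Trp63, which encodes the p53 relative p63 (chr16:25876076-25876338). Its CPM were 0.145, 0.0981, 0.241, 0.700, 0.462 and 0.480 on day 0 and 0.660, 1.06 and 0.939 on day 1, so day 1 overlapped batch 1 of day 0 but not batch 2 (2.00 ± 0.35, adjusted p = 0.00761). The fall at an intronic peak of Pparg, a nuclear receptor gene (chr6:115375092-115375906), was from 2.33, 1.67 and 2.14 CPM in batch 2 on day 0 to 1.02, 0.993 and 1.01 (−1.12 ± 0.24, adjusted p = 0.0143), and on day 3 the peak stood at 0.05 ± 0.19 of day 0 (adjusted p = 0.894). A rise near Gm43755 (1.73 ± 0.50, adjusted p = 0.0405) rested on day 1 replicate 1, with 6.09 CPM against 1.06 and 1.08, and without it was 0.38 (adjusted p = 0.65).

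Between days 1 and 3, 481 peaks (5.08%) were higher on day 3, where 0.987% of all peaks were, and 8 (0.0845%) were lower, where 0.193% were (1.18% in either direction). The median was 0.25. This edgeR count fell to 0 without day 1 replicate 1 or replicate 2 (2175 and 1760 at an unadjusted p of at most 0.05), to 204 without day 0 replicate 3 and to 256, 284, 302 and 314 when day 0 replicate 5 or day 3 replicate 1, 3 or 5 was left out, and rose to 894, 761 and 920 without day 0 replicates 2 and 6 and day 3 replicate 4. Scaling by library size alone gave 295 higher and 143 lower, where it called 915 and 3036 over all peaks. The authors' deposited table of differential peaks, with their own model, listed 349 of these peaks higher (3.69%) and 72 lower (0.760%) on day 1, where it listed 1.66% and 2.15% of all peaks, and 3572 higher (37.7%) and 243 lower on day 3. The authors' deposited table listed 11.8% of all peaks as higher and 8.56% as lower on day 3.

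RNA of the nearest genes was measured in other libraries than accessibility. Whether RNA had a part in the footprint listing was not given. The peaks had 6693 nearest genes, of which 2881 could be tested among 13737 genes. On day 1, 229 of them (7.95%) were higher, where 5.93% of all genes were, and 201 (6.98%) were lower, where 5.45% were (11.4% in either direction); the higher count was 135 when day 1 replicate 1 was left out and the lower count 104 when day 1 replicate 3 was, and scaling by library size alone gave 311 and 122. On day 2, 511 (17.7%) were higher, where 14.8% were, and 491 (17.0%) lower, where 14.5% were (29.3% in either direction), or 323 and 300 without day 2 replicate 2. On day 3, 637 (22.1%) were higher, where 20.4% were, and 764 (26.5%) lower, where 20.1% were (40.5% in either direction). On day 4 the counts were 665 (23.1%), where 19.8% were higher, and 724 (25.1%), where 19.0% were lower (38.9% in either direction). The higher shares lay near those of all genes, and the lower share of day 3 lay farthest above. Genes nearest only to other outside peaks had 20.3% higher and 20.9% lower on day 3. The 1653 of them with such a peak higher on day 3 had 21.0% higher and 25.8% lower. The 1404 genes with a rising ATF3 peak had 23.2% and 27.1%, so a lower share near 26% was not particular to ATF3 peaks. The tested nearest genes were more abundant, at a median of 30.1 CPM against 20.5 for all genes tested, and the part of abundance in these shares was not tested.

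The nearest gene was higher at similar shares whether or not its peak rose. Of 4603 pairs of a peak and a tested nearest gene, 1865 had a peak that rose on day 3, and the gene was higher in 433 of them (23.2%) and lower in 519 (27.8%). In the 2594 pairs whose peak did not pass the test the gene was higher in 22.4% and lower in 27.4%. In the 144 pairs whose peak fell, 28 genes (19.4%) were higher and 53 (36.8%) lower. Counted by gene, 23.2% of the 1404 genes with a rising peak were higher and 27.1% lower, against 21.1% and 25.9% of the 1477 genes with none. Among 98 genes with 3 or more rising peaks, 21.4% were higher and 33.7% lower. These shares were not tested against each other. The authors' deposited table of correlated distal peaks and genes, which lists positive correlations only, held 9494 pairs with these peaks, and 12.8% of them had p of at most 0.05, against 9.29% of the whole table.

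Among bZIP genes, Atf3 itself rose most after Creb5 on day 1 and most of all on day 3. Atf3 RNA was 4.44, 2.24 and 3.77 CPM on day 0, 54.4, 44.0 and 49.8 on day 1 and 450, 529 and 482 on day 3. The days did not overlap, and the day 3 change was 7.14 ± 0.18 (adjusted p = 4.9e-14). An intronic peak in Atf3 with a 9-base site (chr1:191189356-191190868) had 3.54, 2.62, 3.44, 2.36, 2.20 and 2.27 CPM on day 0 and 4.26, 3.85, 5.12, 3.51, 2.83 and 2.88 on day 3, a change of 0.45 ± 0.13 (adjusted p = 0.0116). The days did not overlap within either batch, and its call was lost within batch 1 (adjusted p = 0.34) and within batch 2 (adjusted p = 0.11). Creb5, a CREB-family gene with 1 rising intronic peak, had 0.217, 0 and 1.09 CPM on day 0 and 26.1, 32.5 and 27.7 on day 3 (5.93 ± 0.46). Creb3l2, a membrane-bound CREB relative, had 7 such peaks of which 5 rose, and its RNA rose by 1.32 ± 0.17. Jun, whose product pairs with ATF3, had no such peak and rose by 2.28 ± 0.18. Fos had 2, neither of which passed, and its RNA fell by 1.09 on the log2 scale. Of 12 tested bZIP genes nearest to these sites 6 rose and 2 fell on day 3, against 21 and 3 of 35 bZIP genes in all.

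Genes of axon injury and regeneration near these sites rose in 11 of 12 and fell in 0 (26 and 2 of 34 for the whole list), with a median log2 change of 2.09. Sox11, a transcription factor gene of developing and regenerating neurons, had 38.5, 41.9 and 45.5 CPM on day 0, 301, 345 and 298 on day 1 and 913, 955 and 858 on day 3 (4.43 ± 0.09). Its only such peak lay 125385 bases from the gene start (chr12:27467959-27468502), with 0.506, 1.01, 1.11, 1.1, 1.77 and 1.79 CPM on day 0, 2.25, 2.01 and 2.23 on day 1 and 2.34, 1.03, 1.72, 3.14, 3.69 and 3.5 on day 3. Day 1 lay above all of day 0 (1.35 ± 0.25, adjusted p = 0.00867), while day 3 rose by 1.06 ± 0.20 (adjusted p = 0.000403) and overlapped day 0 within batch 2. Gap43, which encodes a growth cone protein, rose in RNA by 1.27 ± 0.09 on day 3, from 186, 188 and 226 CPM to 488, 506 and 450. Its distal peak with an 11-base site (chr16:42444182-42445405) rose by 0.38 ± 0.13 (adjusted p = 0.0399), with overlap between days, and its call was lost when 1 of 7 libraries was left out (adjusted p of 0.07 to 0.11): day 0 replicate 1, 3 or 6 or day 3 replicate 2, 3, 5 or 6. Flrt3, a cell adhesion gene, rose by 2.21 ± 0.08 while its peak did not pass (−0.29, adjusted p = 0.15). The rise of the secreted guidance gene Sema3c was the largest of the nearest genes that met the naming rule: 0.595, 0.302 and 0.389 CPM on day 0 and 64.4, 64.4 and 61.1 on day 3 (7.22 ± 0.27), with 1 distal 9-base peak that rose by 1.23.

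Genes of cell death and of stress followed. Of 8 apoptosis genes near these sites 6 rose and 0 fell (12 and 2 of 28 in the list). Hrk encodes a BH3-only protein that promotes neuron death and had 2.87, 2.20 and 1.79 CPM on day 0, 39.4, 46.2 and 49.2 on day 1 and 156, 206 and 163 on day 3 (6.28 ± 0.17). An intronic Hrk peak with 3 sites of 9 bases (chr5:118180743-118181175) had 0.434, 0.616 and 1.1 CPM on day 0 and 2.17, 2.43 and 3.06 on day 3 (lowest, median and highest). On day 1 the peak had 1.5, 0.971 and 1.18 CPM in its 3 libraries. Its day 3 libraries lay above all others (1.96 ± 0.19, adjusted p = 3.85e-07). Bcl2l11, which encodes the BH3-only protein BIM, rose in RNA by 3.90 ± 0.13 while neither of its 2 intronic 12-base peaks passed (0.27 and 0.19). Of 8 integrated stress response genes 7 rose and 0 fell (37 and 0 of 38). Among them were the tRNA synthetase gene Tars (1.63) and the amino acid supply genes Asns (1.92) and Slc7a1 (2.44). Phgdh, the first enzyme of serine synthesis, rose by 4.94 ± 0.50 and its peak in the 3′ UTR by 1.13. In DLK and JNK signaling, the kinase pathway that reports axon damage, 6 of 10 rose and 1 fell (12 and 6 of 27). Dusp16, a phosphatase of JNK, rose early, from 5.79, 4.62 and 6.73 CPM to 106, 101 and 95.5 on day 1 and 63.0, 72.1 and 77.8 on day 3, and 2 of its 3 peaks rose. Tnik, an upstream kinase, rose by 1.79 while its 2 peaks did not pass.

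Genes of excitability and synapse moved the other way: of 23 near these sites 17 fell and 1 rose (42 and 4 of 57 in the list), with a median of −0.61. Kcnip4, a potassium channel regulator, fell by 1.67 on the log2 scale and Scn8a, a sodium channel, by 1.41, and none of their peaks passed. Several peaks of this list rose instead, as at the calcium channel gene Cacna1c (2.36 and 1.60) and the potassium channel gene Kcna1 (2.12). RGC identity genes fell in 3 of 7 and rose in 0 (25 and 2 of 37 in the list). Rbpms, an RNA-binding protein that marks RGCs, had 583, 549 and 605 CPM on day 0 and 248, 261 and 258 on day 3 (−1.18 ± 0.07). Its exonic peak (chr8:33832528-33834346) changed by 0.30 ± 0.16 (adjusted p = 0.179), but by 0.73 within batch 2 (adjusted p = 0.00055) and −0.20 within batch 1, and without day 3 replicate 4 by 0.43 (adjusted p = 0.032). Cartpt, a neuropeptide gene, rose by 0.98 on day 1 and fell by 0.84 on day 3. Axon guidance genes rose in 3 and fell in 6 of 14 (5 and 18 of 31), with Sema5a at −1.64 and Ntng1 at −0.73.

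The genes nearest to these sites with the largest falls included Hrh3, a histamine receptor gene, with 42.8, 30.0 and 31.1 CPM on day 0, 12.5, 15.6 and 12.7 on day 1 and 1.26, 1.88 and 2.17 on day 3 (−4.29 ± 0.26). Cck, a neuropeptide gene, went from 41.5, 40.8 and 45.5 to 2.60, 2.44 and 5.05 CPM (−3.66 ± 0.26), and Elfn1, a synaptic organizer gene, fell by 2.94. None of their peaks passed the test: Hrh3 was at −0.46 (adjusted p = 0.077), Cck at −0.23 (0.088) and Elfn1 at 0.17 (0.27). Gm13446, Serpinb1b and Hydin were at −4.17, −3.71 and −3.31. Ifit3 and Uba7, both induced by interferon, were at −4.52 ± 0.91 and −3.52 ± 0.81, with day 0 values of 15.5, 21.7 and 292 CPM for Ifit3, highest in replicate 3. Among the day 1 falls, Ndp (−1.12), Ccne1 (−1.11), Rhobtb2 (−0.99) and Pdgfa (−0.93) kept their call in every alternative run. The falls of Cck (−0.84) and Sema5b (−1.05) each rested on several libraries: Cck lost its call without day 0 replicate 3 or day 1 replicate 1 or 2 (adjusted p of 0.055 to 0.092), and Sema5b without day 0 replicate 3 or any library of day 1 (0.056 to 0.12). Of the day 1 rises, Gpnmb, a glycoprotein gene of phagocytes, had 365, 33.2 and 45.4 CPM, highest in replicate 1, and Ticam1, a Toll-like receptor adaptor gene, rose by 3.18.

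Peak and gene rose together on day 3 in the pairs that follow, which were taken by rank. The intronic Rgs20 peak with 3 sites (chr1:5015307-5015898) had 0.505, 0.667 and 0.915 CPM (lowest, median and highest) on day 0 and 2.30, 3.41 and 4.98 on day 3 (2.44 ± 0.21, adjusted p = 1.21e-07). On day 1 the peak had 1.77, 1.08 and 1.32 CPM in its 3 libraries. Its 3 days did not overlap. RNA of Rgs20, a regulator of G-protein signaling, went from 17.8, 15.6 and 19.8 to 70.4, 56.0 and 63.3 CPM (1.83 ± 0.14). At Arhgap42, a GTPase-activating protein gene, the intronic peak (chr9:9241135-9241753) rose by 1.48 ± 0.16 and RNA by 2.06 ± 0.17. At Lyst, a lysosome trafficking gene, the distal peak (chr13:13573297-13574199) rose by 1.59 ± 0.16 and RNA by 0.85 ± 0.09. Adamts1, a secreted protease gene, rose from 9.20, 16.8 and 12.6 to 77.2, 111 and 78.9 CPM in RNA (2.79 ± 0.18). Its distal peak (chr16:85755905-85756877) rose by 1.20 ± 0.14, from 1.77 to 2.48 to 4.15 to 5.02 CPM in batch 2 and from 4.10 to 4.54 to 8.08 to 11.8 in batch 1, so the days overlapped only across batches. Tmod1, an actin-capping gene, rose by 4.25 ± 0.24 in RNA and 1.42 ± 0.17 in its peak, and Arhgap21 and Ankrd28 rose in both too.

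**Figure D4:**
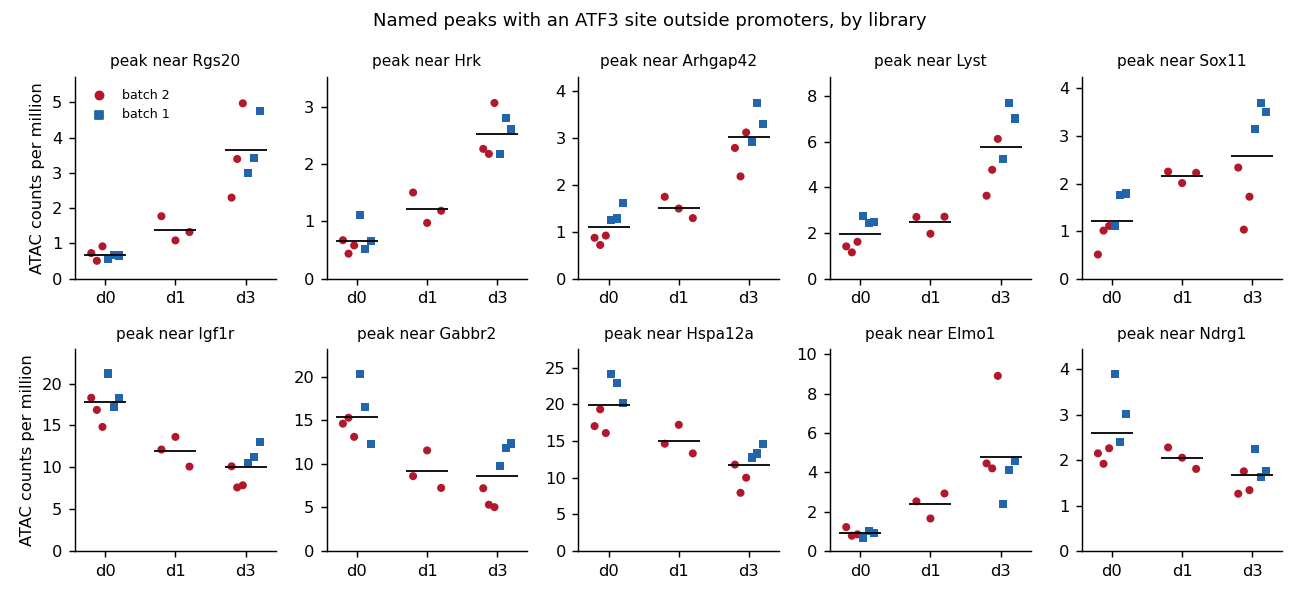
CPM (y axis) of 10 peaks with ATF3 sites outside promoters on days 0, 1 and 3 (x axis), named by nearest gene; red circles are batch 2, blue squares batch 1 and each line marks the mean of a day. The Rgs20 and Hrk peaks of day 3 lie above every day 0 library, while the Igf1r and Hspa12a peaks lie below.

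Peak and gene fell together in a smaller group. RNA of Hspa12a went from 872, 977 and 977 CPM to 349, 334 and 323 (−1.49 ± 0.08), beside the exonic peak above. Gabbr2, a subunit of the GABA-B receptor, went from 329, 350 and 378 CPM to 98.9, 118 and 122 (−1.64 ± 0.10). Of its 7 such peaks 1 fell (chr4:46765305-46767373, −0.90 ± 0.16) and 1 rose (1.07). Igf1r RNA fell by 0.50 on the log2 scale, and of its 6 peaks 3 rose and 1 fell, so the direction of one peak does not stand for the locus. Cacna1h, a T-type calcium channel gene, fell by 1.69 in RNA and 0.53 in a wide 5′ UTR peak. Cux2, Iqsec1, Appl2 and Pitpnm2 were the others named by the same rule, with RNA changes of −0.92, −0.87, −0.62 and −1.02. The Pitpnm2 peak overlapped between days, at 30.1 to 53.3 CPM on day 0 and 10.1 to 41.3 on day 3. Of these 8 peaks those of Hspa12a and Igf1r kept their call in every alternative.

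Opposite directions were as clear. The intronic Elmo1 peak with 3 sites (chr13:20432946-20433779) had 0.663, 0.880 and 1.21 CPM on day 0 and 2.41, 4.32 and 8.90 on day 3, highest in replicate 3 (2.39 ± 0.23, adjusted p = 2.84e-07). RNA of Elmo1, which helps activate Rac in cell movement and engulfment, fell from 429, 388 and 451 to 189, 189 and 164 CPM (−1.22 ± 0.08). Ttc28 (peak 1.74 ± 0.17, RNA −0.94), Scai (1.42 ± 0.16, −1.02) and Ctxn3 did likewise. In the other direction, Ndrg1, a stress-induced gene, rose from 16.7, 15.8 and 14.5 to 69.7, 68.8 and 57.2 CPM (2.06 ± 0.17). Its intronic peak (chr15:66984242-66985014) went from 1.92 to 3.90 CPM on day 0 to 1.26 to 2.24 on day 3 (−0.63, adjusted p = 0.00397). Heg1 (peak −0.64, RNA 1.66), Dagla (−0.54, 0.60) and Cyfip2 (−0.70, 0.33) had the same pattern.

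**Figure D5:**
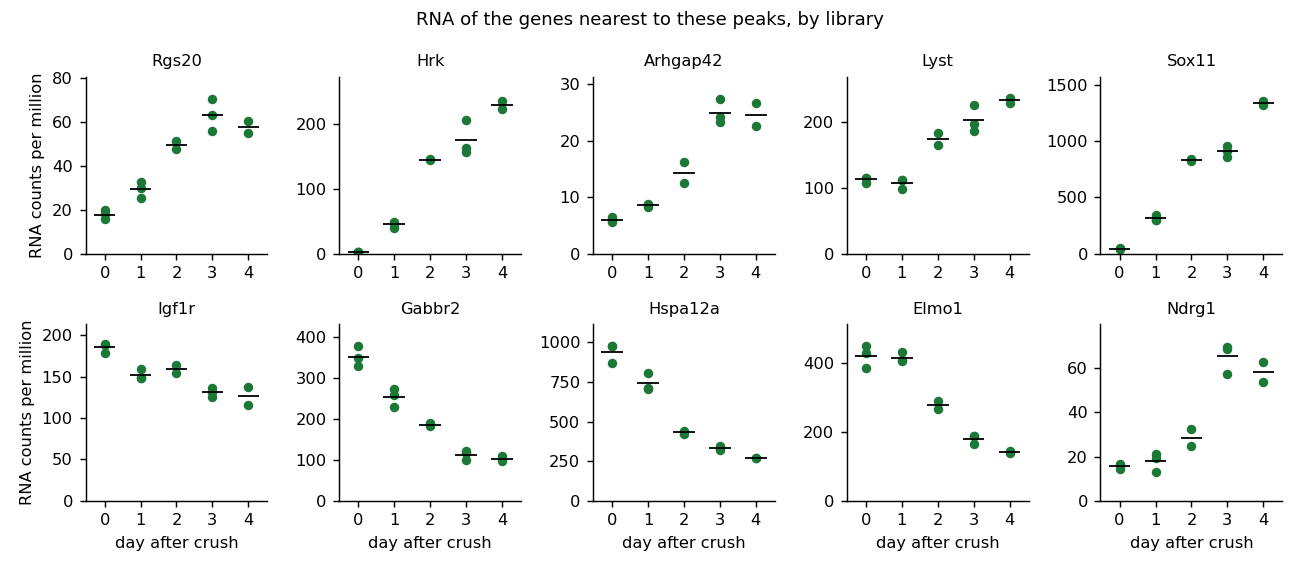
RNA CPM (y axis) of the same 10 nearest genes on days 0 to 4 after crush (x axis); points are libraries and each line marks the mean of a day. Hrk, Sox11, Rgs20 and Ndrg1 lie higher on day 3 than on day 0 and Elmo1, Gabbr2 and Hspa12a lower, with no overlap between these days.

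Some genes gathered many such peaks. Cmip had 13 (2 rose), Nav2 11 (6 rose), and Asap1, Msi2 and Trpm3 10 each, of which 1, 7 and 7 rose. Trpm3, a cation channel gene, had a median peak change of 1.13 while its RNA fell from a mean of 312 to 108 CPM (−1.54 ± 0.09, adjusted p = 8.9e-10). The RNA of the other genes named here did not pass the test, with log2 changes of 0.01 for Cmip, −0.30 for Nav2, −0.19 for Asap1 and −0.14 for Msi2.

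Markers of other retinal cells were measured in the same RNA libraries, beside 37 RGC identity genes that summed to 15789 to 17643 CPM on day 0 and 10713 to 11341 on day 3. The 16 microglia and macrophage genes summed to 119 to 175 CPM on day 0, 171 to 763 on day 1 and 205 to 220 on day 3, with 358 to 391 on day 2 and 338 to 487 on day 4. The 15 rod and cone genes summed to 259 to 1137, 862 to 1158 and 735 to 867 CPM on these days, 17 bipolar, amacrine and horizontal cell genes to 552 to 926, 696 to 751 and 645 to 761, 13 Mueller glia and astrocyte genes to 831 to 908, 947 to 1215 and 695 to 863, and 5 vascular genes to 6.61 to 11.9, 7.87 to 13.6 and 5.09 to 6.79. The sums hold only markers that passed edgeR's filter for low counts, such as 5 of the 11 vascular genes listed. A gene at 0 in every library cannot pass it. Microglia and macrophage genes nearest to these sites were higher in 2 of 7 on day 1 and lower in 1 of 7 on day 3 (7 of 16 higher in the whole list on day 1, 1 higher and 1 lower on day 3), higher in 4 of 7 on day 2 and 5 of 7 on day 4 (9 of 16 on each), and none of their peaks passed on day 3. Their day 1 levels were led by replicate 1, as for Ptprc, which marks leukocytes (39.4, 6.10 and 9.81 CPM against 9.47, 5.53 and 6.53 on day 0). Ptprc was also the 1 gene lower on day 3 (−1.42, adjusted p = 0.044), a call lost without day 0 replicate 1 or 3 or any library of day 2 or 3 (adjusted p of 0.052 to 0.14). Rod and cone genes were higher in 1 of 3 and lower in 0 on day 3 (2 and 0 of 15), bipolar, amacrine and horizontal cell genes higher in 4 and lower in 1 of 7 (4 and 3 of 17), and Mueller glia and astrocyte genes higher in 0 and lower in 2 of 4 (3 and 4 of 13). The call of the rod gene Pde6a was lost without any library but day 0 replicate 1 or the 2 of day 4 (adjusted p of 0.053 to 0.18). Neither vascular gene tested passed (0 of 5 in the list). Peaks near glial and vascular genes did rise, among them 4 of 4 at Flt1 (1.08 to 1.43) and 2 of 2 at Aqp4 (1.32 and 0.99), while RNA of Flt1 on day 3 was 1.05, 0.611 and 0.919 CPM against 1.35, 1.94 and 0.311 on day 0. The part of other cell types in the peak and gene changes was not tested.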

How the data were processed

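ATAC-seq and RNA-seq of sorted mouse RGCs were analysed from the processed files. Per the submitters' processing notes, ATAC data were made with Bowtie2, MACS2, Trim Galore, featureCounts (Subread), ChIPseeker, FastQC, DESeq2, bedtools, Picard and SAMtools on GRCm38/mm10, and RNA data with STAR, Picard, HTSeq and edgeR on mm10, without their settings or roles. The authors deposited raw counts per peak of a common set and per gene, a fraction of reads in peaks per library and a GC fraction per peak (per the file headers), and a footprint score per site and day. The tool behind the score, its normalization, whether libraries of a day were pooled and how sites were selected were not given in the sources used here. Further deposited values by the authors are log2 fold changes with adjusted p-values per peak and p-values of peak-gene correlations, which are quoted as theirs. RNA libraries were made with SMART-Seq, which does not mark strand, so overlapping and antisense genes cannot be told apart. Annotation and nearest genes are the deposited ones; all coordinates are mm10.

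Sites were joined to peaks by any overlap (pyranges 0.1.4, pandas 2.3.3, numpy 2.4.6, Python 3.11.15). Counts were tested with edgeR 4.0.16 (R 4.3.3; TMM, filterByExpr, quasi-likelihood F test), with batch and day as terms for ATAC and day for RNA, over all 151630 peaks or 13737 genes and all groups. P-values were adjusted by Benjamini-Hochberg, a call needed an adjusted p of at most 0.05, and the standard error was computed as the absolute log2 change over the root of F. CPM are TMM-scaled. The test was tried on simulated data with known changes. Depth was 20006724 to 72579102 counts in peaks and 19024286 to 27561352 in genes. All comparisons with day 0 share the day 0 libraries. No label says whether replicates were separate animals, so p-values measure only how these samples vary, and that variation may be technical. RNA of day 2 replicate 3 and day 4 replicate 1 had no column among the gene counts and was not analysed here.

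Between days 0 and 1, ATAC libraries of the same replicate number deviated together from their day means (correlations of 0.121, 0.119 and 0.227, each over 0.1), so the fit with the number as a block is given beside that result. Peaks and genes were named by rule. For days 1 and 3, the 8 largest rises and falls past the threshold without overlap between days were taken, with a mean count of at least 20 (ATAC, within each batch) or 5 CPM (RNA). Further names were 8 sites by day 3 score, 6 by the largest and 6 by the smallest rise in score, 8 pairs for each shared and 4 for each opposite direction, up to 3 genes for each of 13 gene lists, and 9 genes chosen by name. Some genes that met these rules are not reported here. Members of the gene lists, the sites and these rules were chosen with earlier results of these data known. Alternatives were DESeq2 1.42.0, other scalings, filters, terms and batches, the replicate block and each library left out. Figures were drawn with matplotlib 3.10.9.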

Additional observations from a re-analysis of the deposited data

Results flagged for a closer look

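Within the 6 ATAC libraries of day 0 or of day 3, 114 groups of values (the part of peak counts in ATF3 peaks and the CPM of each named peak) were checked for a library far from the others by Dixon's test at 95%, which marks about 1 in 20 groups by chance. It marked 10. Replicate 3 of day 3 was the high library in 5 peaks: near Elmo1 (8.90 CPM, others 2.41 to 4.56), Ttc28 (7.46, others 3.6 to 4.30), Gm8883 (3.35, others 1.05 to 1.75), 1700060C16Rik (3.16, others 0.812 to 1.30) and Gm3332 (2.54, others 1.03 to 1.47). On day 0, replicate 6 was high near Gm8883 (0.524 CPM, others 0.126 to 0.272) and Ttc28 (1.75, others 1.23 to 1.40) and low near Dagla (10.3, others 14.1 to 16.2). Replicate 4 of day 0 was high near Lzts1 (8.84 CPM, others 5.44 to 6.61) and Hrk (1.1, others 0.434 to 0.669).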

How the results depend on the processing

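Counts of ATF3 peaks outside promoters are given as higher and lower. Day 1 against day 0 (1149 and 75) gave 262 lower with DESeq2, 149 lower with DESeq2's size factors, 3023 and 19 with library size only, 2630 and 711 with only the groups compared, 2852 and 617 with batch 2, 406 and 12 with a trend on peak strength removed, 458 and 3 with a fold of at least 2, and 0 and 0 with day only or the fraction of reads in peaks in place of batch. Without the 3 day 3 libraries under 0.2 (chosen after seeing the data) it gave 2748 and 682. Day 3 against day 0 (4294 and 239) gave 370 lower with DESeq2, 2520 and 76 with day only, 2058 and 20 in batch 1, 437 lower in batch 2, 82 lower without those 3 libraries, 1703 and 10 with the fraction of reads in peaks, and 2136 and 2 with a fold of at least 2. Day 3 against day 1 (481 and 8) gave 1162 and 61 with DESeq2 and 4 lower with its size factors, 295 and 143 with library size only, 2062 and 200 with only the groups compared, 2176 and 201 in batch 2, 59 lower with the trend removed, 1246 and 74 without those 3 libraries, 263 and 0 with a fold of at least 2, and 0 and 0 with day only (2451 and 116 at an unadjusted edgeR p of at most 0.05) or the fraction of reads in peaks (2171 and 97). Nearest genes gave, on day 1, 330 lower with DESeq2, 122 lower with library size only, 122 and 96 with only the groups compared and 93 and 8 with a fold of at least 2, which left 206 and 95 on day 2, 248 and 289 on day 3 and 294 and 305 on day 4. Counts over all peaks and genes moved with the setting too. On day 1 they went from 8249 and 3635 peaks to 22069 and 18748 in batch 2. With library size only, genes went from 815 and 748 to 1104 and 452. The causes were not tested, beyond the stricter fold and fewer samples by construction.

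Leaving out 1 library at a time gave 51 to 1727 peaks higher and 0 to 173 lower on day 1, 3870 to 4493 and 157 to 275 on day 3, and 0 to 920 and 0 to 43 between days 1 and 3. For nearest genes it gave 135 to 229 higher and 104 to 212 lower on day 1, 323 to 510 and 300 to 519 on day 2, 533 to 629 and 700 to 785 on day 3, and 513 to 659 and 595 to 731 on day 4.

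The replicate block gave 825 and 28 peaks on day 1, 4173 and 212 on day 3, and 400 and 1 between these days. For nearest genes it gave 224 and 194, 495 and 470, 623 and 765, and 656 and 705 on days 1 to 4. Apart from ATAC days 0 and 1, same-numbered libraries had correlations of −0.207 to 0.191 (ATAC) and −0.161 to 0.102 (RNA). Those of ATAC days 1 and 3 were 0.0815, 0.0180 and 0.112. ATAC libraries with different numbers had −0.280 to 0.251. Whether libraries of these days were paired was not tested further.

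The median changes in footprint score (0.0646 on day 1, 0.0891 on day 3, 0.0313 between them) became −0.000475, 0.00648 and 0.00871 when centred on all listed sites, and 0.65, 0.84 and 0.22 as log2 ratios with a pseudocount of 0.01. The alternative of the site with the highest motif score in each peak was not run, since no motif score was used here, and the site with the highest mean score was taken instead.

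Of the named results, these changed sign in a setting: the Rbpms peak (−0.20 in batch 1), and, with 1 library left out, day 3 RNA of Aqp4 (−0.87 to 0.31), Flt1 (−0.95 to 0.066), Kdr (−1.12 to 0.11) and Pde6h (−0.94 to 0.61, and −0.10 with the replicate block). Aqp4 changed sign without day 0 replicate 1, Flt1 and Kdr without day 0 replicate 2, and Pde6h without day 0 replicate 2 or day 3 replicate 1. A call was lost in some setting by 16 of 16 named peaks of day 1, 17 of 41 of day 3, 4 of 16 genes of day 1 and 3 of 72 of day 3. The day 3 totals include named peaks and genes that had no call to lose, such as the Rbpms peak. Library size scaling gave a median of all peaks of 0.28 on day 1 and −0.16 between days 1 and 3, against 0.06 and 0.01 with TMM. Precision is limited on day 1 by 3 ATAC libraries in 1 batch, and for weak peaks by depth, down to 20006724 counts in a day 3 library.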
